A study of Mus musculus with 8 samples.

Results

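The genes described here are the writers, erasers and YTH readers of N6-methyladenosine (m6A) in RNA, 10 genes chosen by name from the 55414 genes of the deposited table: the writers Mettl3, Mettl14 and Wtap, the erasers Fto and Alkbh5, and the readers Ythdf1, Ythdf2, Ythdf3, Ythdc1 and Ythdc2. The series compared testes from a valine group and a control group of mice by RNA sequencing, with 4 samples in each (valine is an essential amino acid), and its title names nucleic acid methylation. The sources used here give no strain, age, dose, route or duration, and do not say that the samples are from different animals, so a p-value reflects no more than the variation among these 8 samples, part or all of which may be technical. Expression was deposited under the name FPKM, a level per kilobase of gene. The totals of the samples balance around 1000000, which is a property of per-length shares rather than of FPKM, so the exact unit is in doubt and levels are printed as FPKM only by the name of the deposited table. All 10 genes exceeded the mean of 1 FPKM that was required for testing. Control replicate 1 stood apart in a few marker genes: Cfd, a fat cell gene, had 29.8 FPKM there against 0.325 to 1.77 FPKM in the other controls, Car3, another, had 14.6 against 0.261 to 1.65 FPKM, and Crisp1 of the epididymis had 5.06 against 0.105 to 0.282 FPKM. The other markers of these lists did not set it apart. Adipoq had 30.9 FPKM there (27.2 to 34.9 FPKM over the controls) and Plin1 2.72 FPKM (1.23 to 2.90 FPKM). Lcn8 and Defb20 were higher in control replicate 3, and Lcn5 was 0 in all controls. For the 10 genes and a list of related genes, results are also given without control replicate 1 where the call changes. For marker genes and genes of like profile they are not given.

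N6-methyladenosine is the most common internal mark of messenger RNA. It is laid down in the nucleus by a complex in which Mettl3 is the catalytic subunit, Mettl14 binds the RNA substrate and Wtap anchors the pair to nuclear speckles. Fto and Alkbh5 are iron-dependent dioxygenases of the AlkB family that remove it, and proteins with a YTH domain bind it and direct the splicing, translation or decay of the marked RNA. The mark matters in the testis: mice without Alkbh5 have small testes with dying spermatocytes, and germ cells without Ythdc2 fail to progress through meiosis. Only RNA levels of the enzymes and readers were measured, not the mark itself.

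Of the 10 genes, 1 fell with valine and none rose. The eraser Alkbh5 fell, and the other 9 did not pass the test (limma, two-sided, Benjamini-Hochberg adjusted p below 0.05 over all 22077 tested genes). Over all tested genes, 4.41% fell and 4.32% rose by the same rule, 8.73% in either direction. At an unadjusted p under 0.05, 3 of the 10 genes were lower and 0 were higher, against 11.8% lower and 13.8% higher over all tested genes. A limma voom test on recovered counts gave the same numbers for the 10 genes, before and after adjustment. Over all genes it had 14.1% lower and 12.3% higher at an unadjusted p under 0.05. After adjustment it had 6.58% lower and 4.14% higher (7.20% and 3.72% when scaled by totals). The change was negative for 6 and positive for 4, with a median of -0.07 on the log2 scale against 0.02 over all tested genes.

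The promoters of the erasers Alkbh5 and Fto are shown first, because Alkbh5 is the gene that fell and Fto has the same enzymatic role. Of the 10 genes, 7 had an entry in the RefSeq table of promoters (mouse build GRCm38.p6, 250 bases before to 50 bases after the start of the transcript). Both promoters lie on the plus strand, at chr11:60537433-60537732 for Alkbh5 and chr8:91313275-91313574 for Fto, and capitals mark the CpG dinucleotides, the usual sites of DNA methylation. The windows follow the transcript starts of RefSeq; GENCODE vM21 places the first start of Alkbh5 at 60536381, upstream of the window shown, and that of Fto at 91313525, within it.
Alkbh5: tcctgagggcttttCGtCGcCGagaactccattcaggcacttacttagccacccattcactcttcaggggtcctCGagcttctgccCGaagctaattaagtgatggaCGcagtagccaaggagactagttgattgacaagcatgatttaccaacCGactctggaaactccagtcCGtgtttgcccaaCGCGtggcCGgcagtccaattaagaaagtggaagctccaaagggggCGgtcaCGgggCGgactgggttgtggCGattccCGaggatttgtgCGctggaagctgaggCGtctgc
Fto: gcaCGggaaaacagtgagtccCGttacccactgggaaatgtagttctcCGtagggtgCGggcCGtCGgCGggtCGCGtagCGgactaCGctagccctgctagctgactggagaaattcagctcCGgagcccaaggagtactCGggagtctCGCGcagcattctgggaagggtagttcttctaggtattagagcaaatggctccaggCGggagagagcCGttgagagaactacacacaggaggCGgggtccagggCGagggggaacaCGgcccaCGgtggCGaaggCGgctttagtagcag
The Alkbh5 promoter held 18 CpG dinucleotides and the Fto promoter 23, against a median of 7 over 32851 promoters of this length. Of these promoters, 70.3% held fewer than that of Alkbh5 and 78.5% fewer than that of Fto. Searched on both strands, the motif GGGCGG occurred 2 times in the Alkbh5 promoter and 0 times in that of Fto, and 35.7% of all promoters held it. CCAAT occurred 1 time and 0 times (37.4% of all promoters), and neither promoter held TATAAA (13.6%) or ACGTG (19.6%). The letters of the motifs differ, so a match of 1 is not counted as a match of another, though matches may share end bases. The matches describe these windows only.

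Alkbh5 was the most abundant of the 10 genes in the control testes. Its level was 33.2, 36.8, 33.8 and 31.2 FPKM in control replicates 1 to 4. With valine it was 25.3, 24.3, 26.4 and 30.2 FPKM. The groups did not overlap, and valine replicate 4 lay closest to the controls. The mean fell from 33.8 ± 2.33 to 26.5 ± 2.60 FPKM (SD, n = 4 per group), a log2 change of -0.34 ± 0.0815 SE (limma adjusted p = 0.0390; 95% interval -0.52 to -0.15). A log2 change here is a difference of log2(FPKM + 1), so that of a gene with low levels is understated. The call was lost without control replicate 1, 2 or 3 (limma adjusted p = 0.0885, 0.0960 and 0.0761) and without valine replicate 1, 2 or 3 (limma adjusted p = 0.102, 0.0924 and 0.0792), and held without control replicate 4 (0.0463) or valine replicate 4 (0.0265). It was also lost without an expression filter (0.0657), with moderation that ignores the mean-variance trend (0.0614) and after removal of the length trend (0.0988, described further on). With a block for replicate number the call was lost too (limma adjusted p = 0.109, or 0.190 with the length trend also removed). In all, the call held under 8 of 19 alternatives. Apart from the fits with a sample left out, it held with a pseudocount of 0.1 (limma adjusted p = 0.0401) and a filter at 5 FPKM (0.0298). It also held with equal totals (0.0106) and quantile normalisation (0.0319). By limma voom on recovered counts the adjusted p was 0.0168, or 0.01265 when scaled by totals. The change stayed negative under all 19 alternatives, between -0.45 and -0.27.

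**Figure D1:**
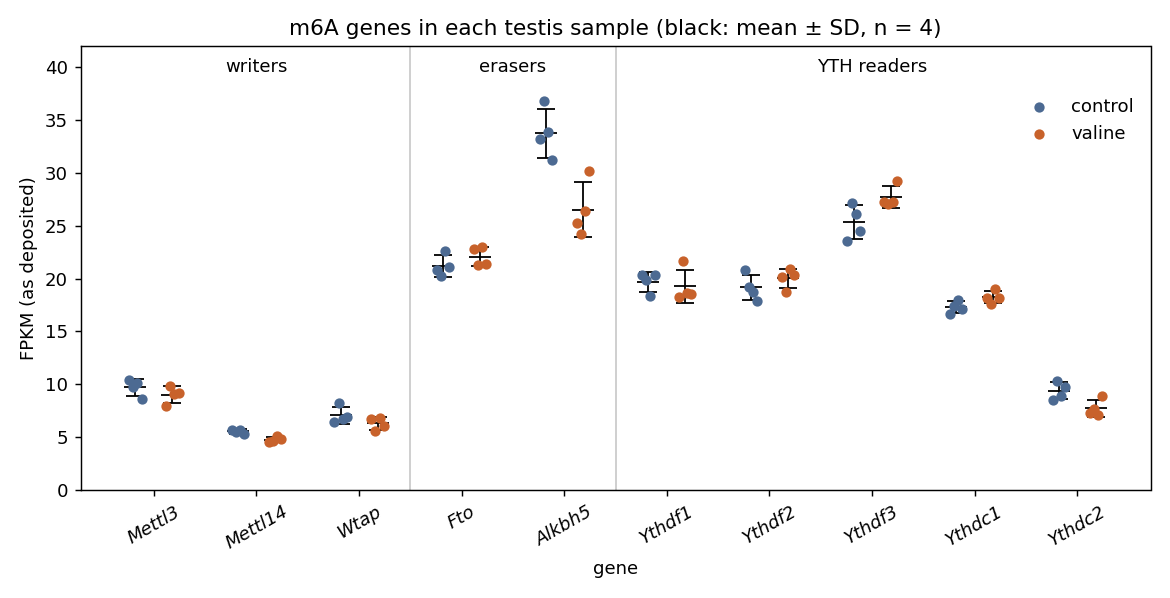
FPKM of the 10 genes (horizontal axis) in each of the 4 control and 4 valine samples (points), with the mean and SD of each group in black. Alkbh5 lies between 31.2 and 36.8 FPKM in the control and between 24.3 and 30.2 FPKM in valine testes, while most other genes have overlapping groups.

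**Figure D2:**
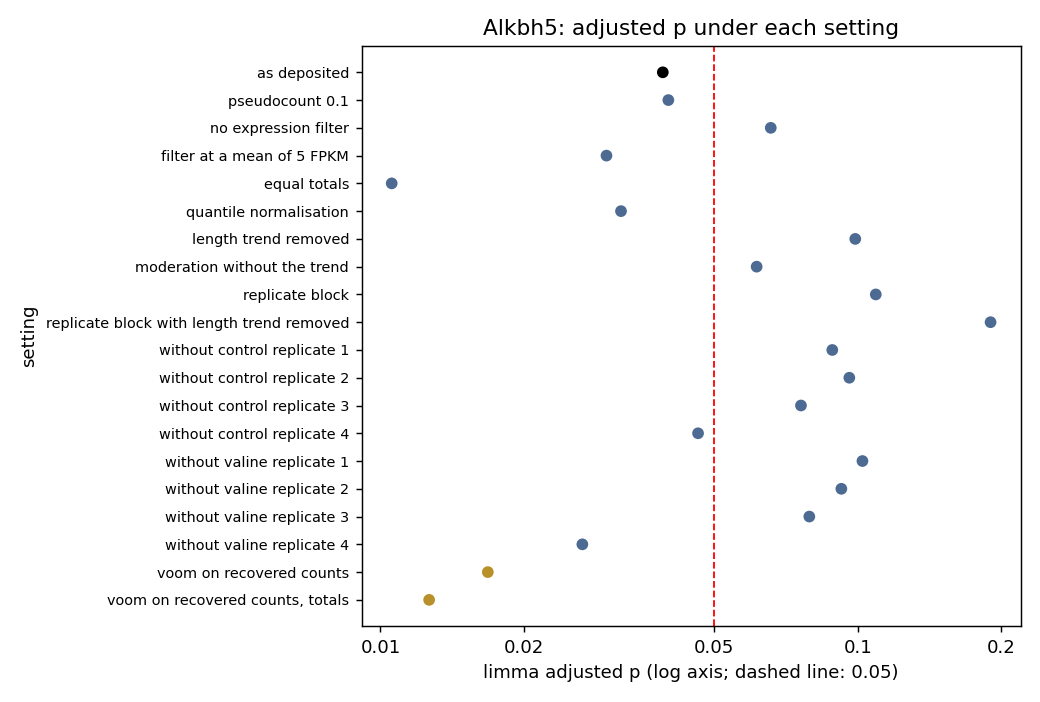
Adjusted p of Alkbh5 (log axis) as deposited (black), under the 17 alternatives fixed at the outset (blue) and under the 2 added after the data were seen (ochre); the dashed line is 0.05. The points lie between 0.0106 with equal totals and 0.190 with the replicate block and the length trend removed.

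Fto, the other eraser, which was first known as a gene linked to body weight, did not pass. It had 20.8, 20.3, 22.6 and 21.1 FPKM in the control and 22.8, 21.3, 23.0 and 21.4 FPKM in the valine samples. The groups overlapped over most of their range, and the log2 change was 0.06, with a 95% interval of -0.08 to 0.19 (limma adjusted p = 0.588). The ratio of Alkbh5 to Fto within a sample does not depend on a scaling factor common to all genes of the sample. A trend with gene length (described further on) need not cancel in it, as their exons cover 5987 and 13031 bp. The ratio was 1.60, 1.82, 1.498 and 1.48 in the control samples and 1.11, 1.14, 1.15 and 1.42 in the valine samples. The groups of this ratio did not overlap, again with valine replicate 4 nearest to the controls. The sum of both genes was 52.3 to 57.1 FPKM in the control and 45.6 to 51.6 FPKM in valine testes. Ratios and sums over these genes are descriptions, with no test.

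Among the writers none passed (limma adjusted p = 0.538 for Mettl3, 0.174 for Mettl14 and 0.428 for Wtap). Mettl14, the RNA-binding partner, had the lowest level of the 10 genes. It was 5.73, 5.53, 5.71 and 5.28 FPKM in the control samples and 4.57, 4.62, 5.10 and 4.80 FPKM in the valine samples. Its groups did not overlap, which held for 2 of the 10 genes, Alkbh5 and Mettl14, and for 18.4% of all tested genes (valine lower in 9.39% and higher in 8.99%). The log2 change of Mettl14 was -0.18 ± 0.0768 SE, and its p was 0.0410 before adjustment for the number of genes (limma).

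Mettl3, the catalytic subunit, had 10.4, 9.73, 10.1 and 8.63 FPKM in the control and 7.98, 9.85, 9.11 and 9.18 FPKM in the valine samples. The lowest value was that of valine replicate 1, and the groups overlapped (log2 change -0.10, 95% interval -0.30 to 0.10). In the annotation 18.4% of the exon bases of Mettl3 are shared with Tox4 on the opposite strand; the sources used here do not say whether counting used strand, so reads of Tox4 may enter the level of Mettl3. For Fto, 3.44% of the exon bases are likewise shared with genes on the opposite strand. For Ythdc1, 4.62% are shared with Gm43055, a predicted gene on the same strand, from which counting by strand would not separate it. Wtap, the adaptor, had 6.42, 8.24, 6.68 and 6.89 FPKM in the control and 6.77, 5.58, 6.81 and 6.05 FPKM in the valine samples. Its groups overlapped too, and its spread was the widest of the writers, with an SD of 11.5% of the mean in control testes. Mettl3 and Mettl14 act as a pair, and the ratio of their levels was 1.75 ± 0.0801 in control and 1.89 ± 0.172 in valine testes, with overlapping groups. The sum of the 3 writers was 20.8 to 23.5 FPKM in the control and 19.3 to 21.0 FPKM in valine testes.

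Ythdf1, Ythdf2 and Ythdf3 are cytoplasmic readers with closely related sequences. Ythdf2 recruits the CCR4-NOT deadenylase to marked RNA, and Ythdf1 and Ythdf3 have been linked to translation. None passed (limma adjusted p = 0.811, 0.605 and 0.248). Ythdf1 had 20.4, 19.9, 18.4 and 20.3 FPKM in the control and 18.2, 21.6, 18.7 and 18.5 FPKM in the valine samples. Valine replicate 2 stood above the other 7 samples and the other valine samples were close to each other. Ythdf2 had 20.8, 19.2, 18.8 and 17.9 FPKM in the control and 20.2, 18.8, 20.9 and 20.3 FPKM in the valine samples, so that the groups largely overlapped. Ythdf3 had 23.6, 27.1, 26.1 and 24.5 FPKM in the control and 27.2, 27.1, 27.2 and 29.2 FPKM in the valine samples. Its groups met at the highest control sample, and the log2 change of 0.12 (95% interval -0.02 to 0.27) was the most positive of the 10 genes. As shares of the summed level of the 3 genes, Ythdf1 made up 30.7% ± 1.48, Ythdf2 29.8% ± 1.59 and Ythdf3 39.45% ± 2.23 in control testes (SD, n = 4). The shares with valine were 28.8% ± 2.23, 29.9% ± 1.504 and 41.3% ± 1.21, with overlapping groups for each gene.

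Ythdc1 is the nuclear reader, which acts in splicing and export. It had 16.6, 17.4, 17.99 and 17.1 FPKM in the control and 18.1, 17.6, 19.0 and 18.2 FPKM in the valine samples. The groups overlapped only in the span between valine replicate 2 and control replicate 3 (log2 change 0.07, 95% interval -0.05 to 0.20, limma adjusted p = 0.457). Ythdc2, a helicase needed for meiosis, had 8.56, 10.3, 8.89 and 9.77 FPKM in the control and 7.31, 7.68, 7.11 and 8.91 FPKM in the valine samples. Of the valine samples, replicate 4 lay within the control range and the other 3 lay below it. The log2 change of Ythdc2 was -0.25 ± 0.0936 SE (limma adjusted p = 0.141), and its p was 0.0279 before adjustment for the number of genes (limma). With the samples rescaled to equal totals it passed (log2 change -0.35, limma adjusted p = 0.0385), where 9.16% of all genes fell and 1.64% rose, and with the length trend removed the log2 change was -0.14 (limma adjusted p = 0.443). The ratio of Ythdc1 to Ythdc2 was 1.94, 1.69, 2.02 and 1.75 in the control and 2.48, 2.29, 2.67 and 2.04 in the valine samples. The groups of this ratio did not overlap, although control replicate 3 and valine replicate 4 were close. The exons of Ythdc1 and Ythdc2 cover 13651 and 8878 bp, so a trend with gene length need not cancel in this ratio either.

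The order of the levels was similar in the groups. In control testes Alkbh5 came first (33.8 FPKM), then Ythdf3 (25.3 FPKM), Fto (21.2 FPKM), Ythdf1 (19.7 FPKM), Ythdf2 (19.2 FPKM), Ythdc1 (17.3 FPKM), Mettl3 (9.73 FPKM), Ythdc2 (9.38 FPKM), Wtap (7.06 FPKM) and Mettl14 (5.56 FPKM). The sample ranges of neighbours overlapped from Fto to Ythdc1 and between Mettl3 and Ythdc2, so these neighbours were not separated. With valine Ythdf3 (27.7 FPKM) and Alkbh5 (26.5 FPKM) had overlapping ranges at the top, and Ythdf2 (20.04 FPKM) and Ythdf1 (19.3 FPKM) had changed places within overlapping ranges. The 3 writers and Ythdc2 had the lowest levels in each group.

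The totals of the deposited values lay between 944659 and 974626 in control and between 1027662 and 1070524 in valine samples, and their geometric mean over the 8 samples was 1000000. Multiplied by the exon length of each gene, the values stood in whole-number steps (98.4% to 98.5% of values of genes with several transcripts within 0.15 of a whole number, against 29.3% to 30.3% with lengths shuffled between genes). This gave 16739726 to 19403336 counts in the control and 17377354 to 19818574 counts in the valine samples. The 10 genes then rested on 225 counts (Mettl14 in valine replicate 1) to 2276 counts (Fto in valine replicate 3) per sample, for which counting error alone gives an SD of 6.67% to 2.10%. The sources used here do not say whether a count is a read or a fragment, and these SDs cover counting error only. The SD of Mettl14 between samples was 3.73% of the mean in control and 5.04% in valine testes, no more than its counting error of 5.54% to 6.67%. That of Alkbh5 was 6.90% and 9.81%, above its counting error of 2.56% to 3.15%.

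The 10 genes are long, and long genes had lower values with valine. Their exons cover 3316 bp (Ythdf1) to 13651 bp (Ythdc1). In the shortest of 5 equal bins of tested genes (12 to 808 bp) the median log2 change was 0.15, and in the longest (5785 to 41155 bp), which held 6 of the 10 genes, it was -0.10. Among the 8911 tested genes at least as long as Ythdf1 the median was -0.06, close to that of the 10 genes, and 7.46% fell and 1.81% rose. Alkbh5 lay below this trend, with a log2 change of -0.27 after a smooth trend on length was removed from each sample, where 3.31% of all genes fell and 2.17% rose. After that removal Fto and Ythdc1 had log2 changes of 0.19 and 0.21 (limma adjusted p = 0.131 and 0.0756), Ythdf3 of 0.18 (0.138), and Mettl14 of -0.09 (0.534). Rescaling to equal totals shifted the median over all genes by -0.10 and turned the changes of Fto, Ythdf2 and Ythdc1 negative (-0.05, -0.05 and -0.04).

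**Figure D3:**
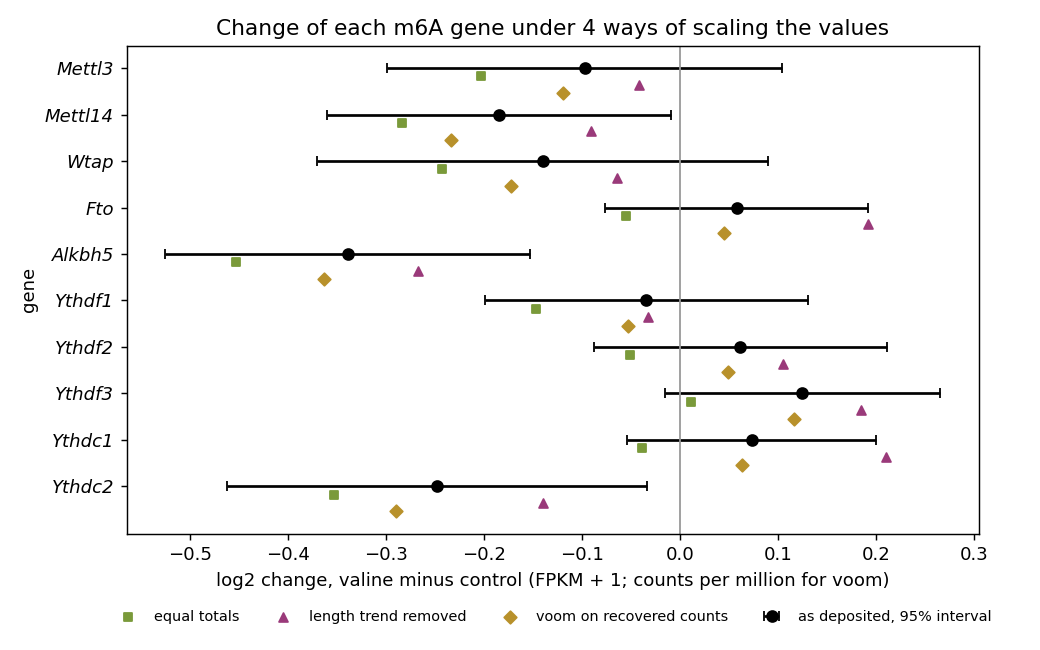
Log2 change of each of the 10 genes (vertical axis), valine minus control, as deposited with its 95% interval (black) and with equal totals, with the length trend removed and by limma voom on recovered counts. Alkbh5 lies between -0.45 and -0.27 in all 4, while the marks of Fto, Ythdf2 and Ythdc1 lie on either side of 0.

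**Figure D4:**
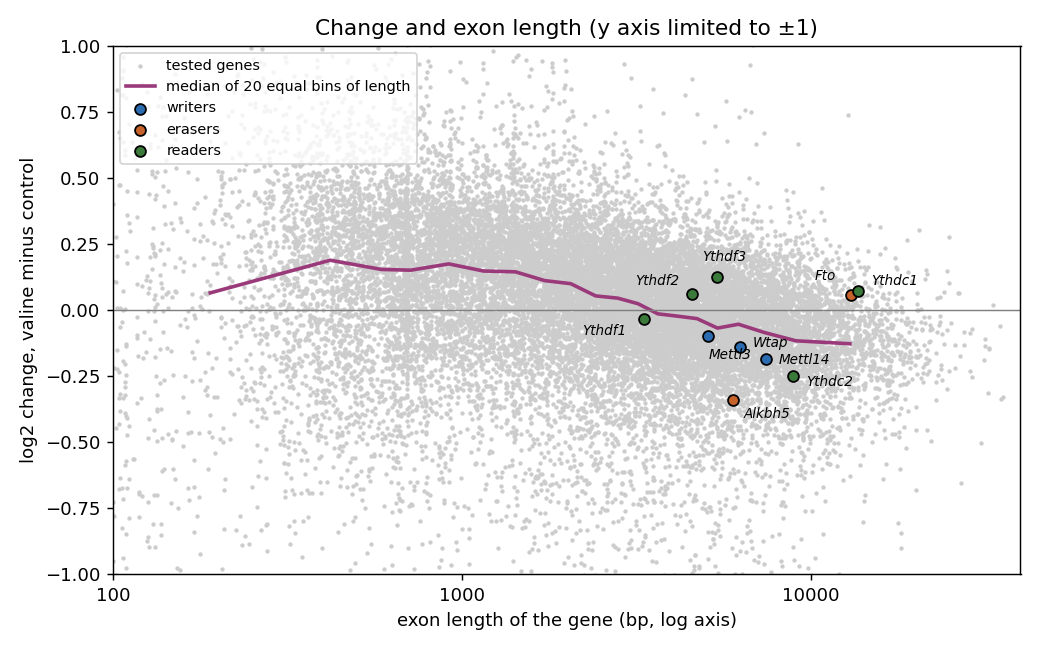
Log2 change (vertical axis, limited to ±1) against exon length (log axis) of the tested genes (grey), with the median of 20 bins of equal size (purple) and the 10 genes in colour. The 10 genes lie in the long part of the range, where the median is below 0, and Alkbh5, Ythdc2, Mettl14, Wtap and Mettl3 are the lowest of them.

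A list of 36 related genes (the pathway list) held other writer subunits, RNA adenine methyltransferases and their partners, and AlkB dioxygenases. It also held proposed m6A binding proteins, partners of YTH readers and genes of S-adenosylmethionine supply. The AlkB genes were listed by family, not as erasers of the mark. Among the 35 tested genes there were 3 falls and no rise (Igf2bp2 had a mean under 1 FPKM). The 3 falls are 8.57% of the list, against 4.41% of all tested genes that fell, or 7.46% of those at least as long as Ythdf1. At an unadjusted p under 0.05 the limma test had 7 of the list lower (20% of those tested, against 11.8% of all tested genes) and 3 higher (8.57% against 13.8%). By voom on recovered counts 3 fell and 0 rose after adjustment, and before it 8 were lower (22.9% against 14.1% of all genes) and 3 higher (8.57% against 12.3%). The list had a median log2 change of -0.07. The list was chosen with earlier results of these data known.

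Prrc2a, a proposed m6A binding protein, had a mean of 344.1 ± 26.9 FPKM in the control and 251.5 ± 18.7 FPKM in the valine group, and fell (a log2 change of -0.45 ± 0.0741 SE, limma adjusted p = 0.0109). Its levels were 352.7, 308.2, 372.6 and 342.8 FPKM in the control and 260.9, 254.1, 266.7 and 224.6 FPKM in the valine samples, without overlap, and it passed under 18 of 19 alternatives. Cnot1, the scaffold of the CCR4-NOT complex that Ythdf2 recruits, fell from 101.5 ± 12.8 to 75.7 ± 5.43 FPKM (limma adjusted p = 0.0338). Mat2a, which makes the methyl donor S-adenosylmethionine, fell from 75.0 ± 4.43 to 63.4 ± 2.999 FPKM (limma adjusted p = 0.0432). Cnot1 and Mat2a each passed under 7 of 19 alternatives; with the length trend taken out neither passed (limma adjusted p was 0.0868 and 0.110). Both were lost without control replicate 1, 2 or 4 or without any 1 of the 4 valine replicates, with limma adjusted p of 0.0517 to 0.0793 for Cnot1 and 0.0639 to 0.112 for Mat2a.

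None of the 5 other subunits of the writer complex passed. Virma, its scaffold, had 19.7 ± 0.655 FPKM in the control and 17.3 ± 1.63 FPKM in the valine group (limma adjusted p = 0.190), and Zc3h13 had 10.7 ± 0.794 and 9.70 ± 0.455 FPKM (0.322). None of 6 other RNA adenine methyltransferases and partners passed, with Mettl5, which modifies ribosomal RNA, at 6.55 ± 0.190 and 5.51 ± 0.626 FPKM (limma adjusted p = 0.171), and Pcif1, which acts on the cap, at 15.4 ± 1.13 and 14.1 ± 0.725 FPKM (0.346). Among 7 other AlkB dioxygenases none passed and the median log2 change was 0.13. Alkbh3, a repair enzyme of alkylated DNA and RNA, had 36.7 ± 0.958 and 42.2 ± 3.11 FPKM (limma adjusted p = 0.0966), and passed when valine replicate 3 was left out (0.0370). Alkbh4 had 18.2 ± 2.91 and 21.4 ± 2.45 FPKM (limma adjusted p = 0.278). Meioc and Rbm46, the meiotic partners of Ythdc2, were named after their values were seen. Meioc had 92.9 ± 7.01 and 82.3 ± 6.26 FPKM (limma adjusted p = 0.182) and Rbm46 61.3 ± 4.12 and 61.0 ± 3.18 FPKM (0.964).

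**Figure D5:**
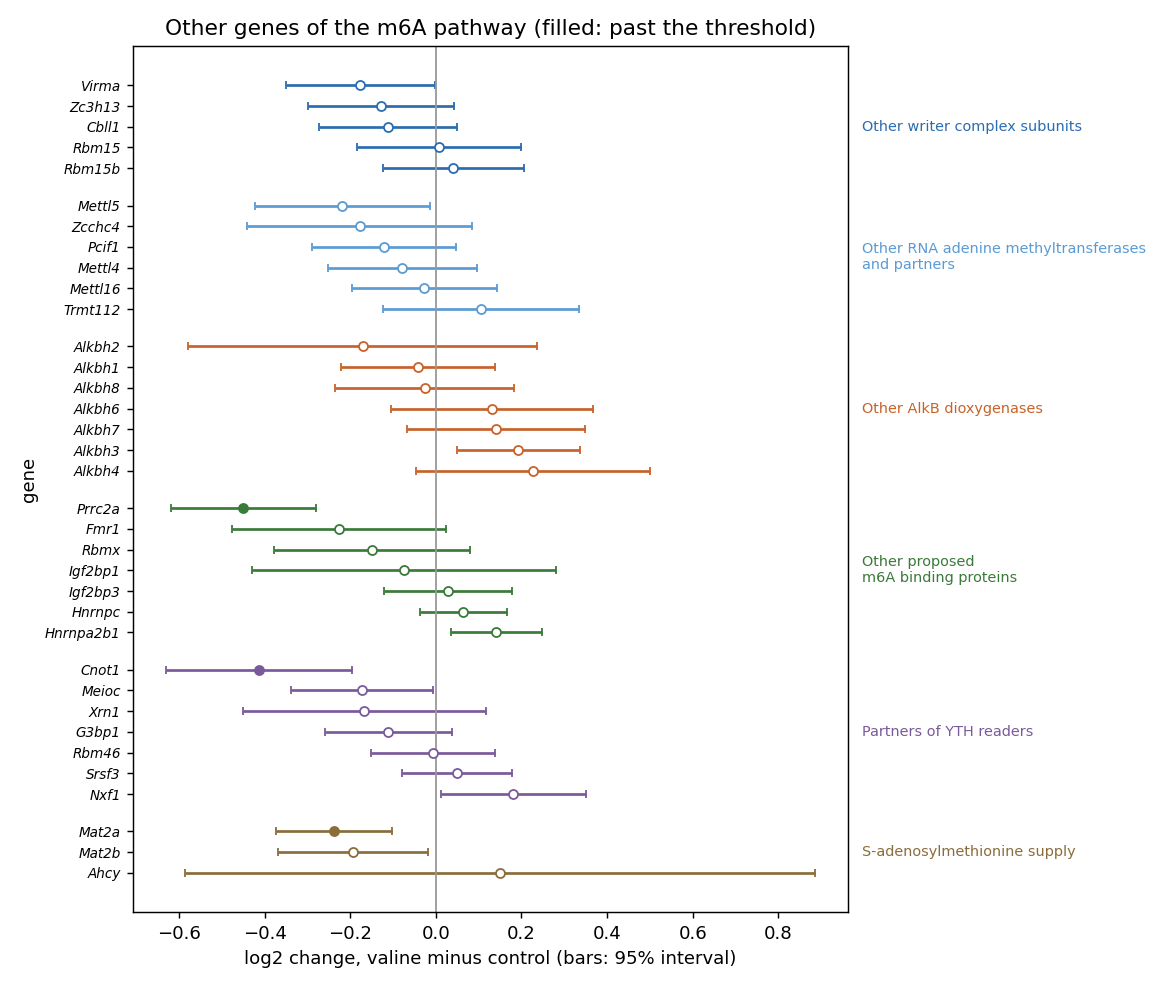
Log2 change, valine minus control, with its 95% interval for 35 tested genes of the list, grouped by role; filled points passed the test. Prrc2a (-0.45), Cnot1 (-0.41) and Mat2a (-0.24) are the filled points, and 4 of the 7 AlkB genes lie above 0.

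The genes whose profile over the 8 samples was most like that of Alkbh5 were Osbpl5, Mob1a and Ddx6, with root mean square differences of 0.024, 0.045 and 0.048 on the log2 scale after each profile was centred. Ddx6, an RNA helicase of messenger RNA decay, had 38.2, 39.9, 40.4 and 34.3 FPKM in the control and 29.8, 26.5, 30.7 and 34.0 FPKM in the valine samples (limma adjusted p = 0.0510). Mob1a, a regulator of Hippo kinases, fell with a log2 change of -0.38 (limma adjusted p = 0.0222), and Osbpl5, a lipid transfer protein, had a log2 change of -0.31 (limma adjusted p = 0.107). As in Alkbh5, valine replicate 4 had the highest valine level of each. These genes were picked for a profile like that of Alkbh5, so their changes follow from the choice.

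The samples carried the markers of testis, and marker genes of several cell types moved with the treatment. In bulk tissue, fewer cells of a type and less RNA per cell cannot be told apart. All 7 Leydig markers fell (Insl3 the most abundant; summed level 1580 to 2243 FPKM in the control samples, 460.7 to 750.8 FPKM with valine), as did 3 of 5 macrophage markers (Lyz2 the most abundant; 61.0 to 77.6 against 26.4 to 32.1 FPKM) and 3 of 3 tested endothelial markers (Eng; 12.2 to 17.0 against 5.90 to 6.39 FPKM). Of 4 peritubular myoid markers 1 fell (Acta2, the most abundant; 51.6 to 67.55 against 28.2 to 38.8 FPKM), and of 4 adipocyte markers Plin1 fell while Adipoq, the most abundant, did not pass (29.8 to 78.0 against 30.3 to 39.3 FPKM, the highest control sum being that of replicate 1). Of 8 elongating spermatid markers 7 rose (Tnp2 the most abundant; 44342 to 46635 against 56491 to 68666 FPKM). None of 8 Sertoli markers passed (Clu the most abundant, summed level 551.6 to 643.3 against 547.6 to 596.9 FPKM). Nor did any of 7 round spermatid markers (Acr the most abundant, summed level 1199 to 1399 against 1289 to 1511 FPKM). Of 8 spermatocyte markers 1 rose and 1 fell (summed level 2078 to 2198 against 2144 to 2264 FPKM), and Hspa2, the most abundant, did not pass. Of 8 spermatogonial markers 2 fell (summed level 91.2 to 110.1 against 101.3 to 113.3 FPKM). Uchl1, the most abundant of them, was not among those that fell and did not pass. The 4 epididymis markers, with Crisp1 the most abundant, had means under 1 FPKM over all samples and were not tested. No marker was at 0 in all samples. The part of these shifts in the values of Alkbh5 and the other m6A genes was not tested.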

How the data were processed

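Libraries were built from total RNA of mouse testis with a TruSeq kit, per the labels' protocols. Reads were aligned with HISAT2 to GRCm39, per the submitters' processing notes; the sources used here do not name a quantifier, annotation release or strand setting. FPKM is the unit in the name of the deposited table. The authors deposited 1 table of FPKM values for 55414 genes in 8 samples, with 0 per-sample columns left unused. Symbols (52081 genes) came from a reference list of gene names, then from RefSeq and GENCODE vM21 for genes still unnamed. Exon lengths (union of exons, 98.2% of tested genes) came from GENCODE vM21. It is an annotation of GRCm38, an older build than the one named for the alignment. Exon overlaps and promoter positions are therefore those of GRCm38, and no position was taken from the deposited table.

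Genes averaging 1 FPKM or more (22077) were fitted with limma 3.58.1 in R 4.3.3 on log2(FPKM + 1), with treatment as the only term and moderation that follows the mean-variance trend. Tests were two-sided, with p-values adjusted by the Benjamini-Hochberg method and a threshold of 0.05. The fit was tested on simulated data with independent noise and no trend with gene length. That test cannot show how such a trend affects the calls. Counts were recovered as FPKM times exon length times a constant fitted to each sample from genes with 1 transcript, and tested with limma voom. No 2 samples held identical values. Same-numbered samples did not deviate together. Alternatives changed the pseudocount, filter, scaling, length trend (loess span 0.3), moderation, replicate block and samples.

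The members and lists were chosen with earlier results of these data known. The text names all 10 members, the genes past the threshold in each group of the pathway list (or the 2 with the smallest p), the most abundant marker of each cell type, and the 3 genes with profiles most like that of the member with the smallest p.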

Additional observations from a re-analysis of the deposited data

Results flagged for a closer look

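In 3 of 30 groups of 4 values tested, 1 sample stood apart from the other 3 by Dixon's criterion at 95%; chance alone flags about 5% of groups. Ythdf1 had 21.621 FPKM in valine replicate 2, against 18.2 to 18.7 FPKM in the other valine samples. Ythdf3 had 29.223 FPKM in valine replicate 4, against 27.1 to 27.2 FPKM in the others. The ratio of Alkbh5 to Fto was 1.415 in valine replicate 4, against 1.11 to 1.15 in the others. These groups share samples and genes, so they are not independent.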

How the results depend on the processing

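Over all tested genes 954 rose and 974 fell (49.5% of calls higher). Rises numbered 568 without an expression filter, 363 with equal totals (15.2% of calls higher), 398 with quantile normalisation (27.9%), 471 with the length trend removed and 503 with moderation that ignores the trend. Falls numbered 2022 with equal totals, and 1530 by voom on recovered counts scaled by totals (34.1% higher), which was chosen after seeing the data; with median-of-ratios scaling 38.6% of voom calls were higher. With 1 sample left out, 381 to 795 rose and 461 to 802 fell. The number of m6A members that fell was 1 as deposited, 2 with equal totals (Alkbh5 and Ythdc2), and 0 without an expression filter, with the length trend removed and with moderation that ignores the trend; it was 0 to 1 with 1 sample left out. No member passed the threshold as higher under any of the 19 alternatives run. In the pathway list, 3 falls became 6 with equal totals, 1 without an expression filter, 1 with the length trend removed and 1 with moderation that ignores the trend, and 1 to 3 with 1 sample left out. The 0 rises became 1 with the length trend removed (Hnrnpa2b1) and were 0 to 1 with 1 sample left out. Leaving out a sample reduces the samples tested; for the other settings the cause was not tested.

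The replicate numbers did not pair the samples (correlations of same-numbered deviations across genes of -0.02, -0.04, 0.10 and 0.11). With the replicate block 581 genes rose and 489 fell, 0 members and 1 pathway gene fell, and Alkbh5 had a limma adjusted p of 0.109. With the replicate block and the length trend removed 144 rose and 313 fell, 0 members and 0 pathway genes fell, and Alkbh5 had a limma adjusted p of 0.190. Mettl14, Mettl3 and Wtap had the fewest counts of the 10 genes. The part of depth in their results was not tested.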
